A study of Mus musculus with 15 samples.

Results

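Interleukin-13 (IL-13) was added to cAMP-stimulated primary mouse hepatocytes, and its effect was read in every gene that passed one level filter: at least 10 scaled reads in at least 3 of the 15 RNA-seq libraries, which kept 12703 of the 24347 entries of the deposited table. A scaled read is an estimated read of a gene after each library was brought to a common size, so a value compares the same gene between libraries and not one gene with another. The libraries form 5 groups of 3: cAMP with IL-13, cAMP, glucagon with IL-13, glucagon and vehicle. IL-13 was recombinant protein at 10 ng/mL, given 2 h before the stimulus and kept on during it. The stimulus, either cAMP at 100 µM or glucagon at 100 nM, lasted 3 h, and vehicle cells received neither stimulus nor cytokine. All groups were hepatocytes of male adult mice; the mouse strain is not settled, because the labels name C57BL strains and the study's methods name BALB/c. IL-13 was not given on its own, so an effect of IL-13 on the cAMP response and an effect that needs no stimulus cannot be told apart. Nothing in the labels ties the 3 libraries of a group to separate animals or cultures, so the p-values cover only the variation among libraries, and that may be technical.

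IL-13 is a type 2 cytokine that signals through a receptor made of the chains encoded by Il13ra1 and Il4ra. The receptor activates JAK kinases and STAT transcription factors, which in turn induce SOCS proteins that shut the signal down. Glucagon, the hormone of fasting, raises cAMP in hepatocytes, and cAMP acts through protein kinase A and the transcription factor CREB on genes of gluconeogenesis and amino acid breakdown.

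The 3 libraries of cAMP with IL-13 held 20718041 to 24245973 reads and the 3 of cAMP 16662551 to 21675792, as recovered from the steps of the low values, so depth moved with the group and its part in the results was not tested. Library cAMP 2 stood apart from its mates: the SD of log2 differences over genes was 0.25 to 0.26 between it and the other cAMP libraries and 0.13 between cAMP 1 and cAMP 3. One of the vehicle libraries, vehicle a, also stood apart from the other vehicle libraries (SD 0.32 and 0.34, against 0.19 between the others). Its log2 differences from vehicle b and c followed estimated log2 transcript length (Pearson's r -0.66 and -0.66, against -0.05 between vehicle b and c). For cAMP 2, r was 0.08 with cAMP 1 and -0.16 with cAMP 3. The part of length in values set against vehicle was not tested. Alb, the albumin gene that defines hepatocytes, had 607850 to 617520 scaled reads in cAMP with IL-13 and 576960 to 631120 in cAMP. The T cell gene Cd3e and the neutrophil gene S100a8 were at 0 in cAMP with IL-13 and at 0 to 1.02 in cAMP.

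IL-13 moved more genes up than down, and the rises were larger. In cAMP with IL-13 against cAMP, 495 genes (3.9% of those tested) passed a limma adjusted p of 0.05: 320 were higher (2.52%) and 175 lower (1.38%). The median change of the called genes was 1.40-fold for the higher ones and 0.776-fold for the lower ones. A log2 change of at least 1 was reached by 47 higher and 4 lower genes, and a change of at least 2 by 10 higher genes and 0 lower genes. The libraries of both groups did not overlap for 3149 genes (24.8%), among them all 495 called ones. The median log2 change of all tested genes was -0.00077. Calls were more frequent in abundant genes: 5.58% of 3528 genes with a mean of at least 1000 scaled reads were called, against 2.27% of 3255 genes with a mean under 100. The count of calls depended on the libraries: it was 323 without cAMP 1, 396 without cAMP 2 and 312 without cAMP 3, 298, 292 and 282 without cAMP with IL-13 1, 2 and 3, and 765 without vehicle a.

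**Figure D1:**
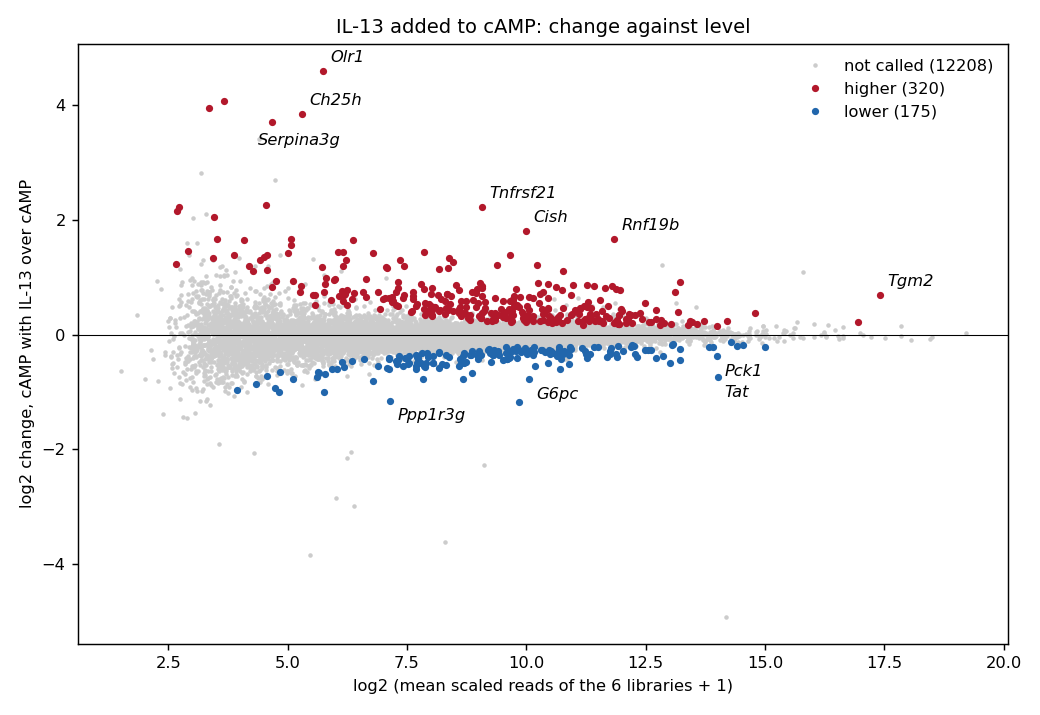
Each point is 1 of 12703 genes. The horizontal axis is the log2 of the mean scaled reads of the 6 libraries plus 1, and the vertical axis is the log2 change of cAMP with IL-13 over cAMP. Red points are the 320 genes called higher and blue points the 175 called lower at a limma adjusted p of 0.05. The red points reach 4.60 on the log2 scale and the blue ones -1.18.

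The genes of the receptor and of its kinases and STATs were expressed, and 20 of 21 tested members of the list of IL-13 receptor, JAK and STAT genes did not pass the test. In FPKM, a unit per length of transcript, Il13ra1 had 17.2 to 18.9 in cAMP with IL-13 and 16.7 to 18.7 in cAMP. Il4ra, the partner chain, had 6.41 to 6.82 FPKM in cAMP with IL-13 and 5.82 to 6.73 in cAMP. Il13ra2, the decoy receptor, stayed at or below 0.122 FPKM in all 6 libraries. Stat6, the main STAT of the IL-4 and IL-13 receptors, had a log2 change of 0.00 ± 0.06 (limma adjusted p = 1), and Stat3, the STAT of IL-6 signalling, -0.06 ± 0.07 (adjusted p = 0.864). The called member was Jak2, a kinase of cytokine receptors, with 709, 784 and 693 scaled reads in cAMP with IL-13, against 504, 615 and 564 in cAMP (log2 change 0.38 ± 0.08, limma adjusted p = 0.0138). Its adjusted p was 0.103 without cAMP 1 and 0.0996 without cAMP with IL-13 2.

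The SOCS family, the feedback inhibitors of JAK-STAT signalling, had 3 of 8 members higher and 0 lower. Counts of list members here and below stand beside 2.52% higher and 1.38% lower among all tested genes. Cish, which blocks STAT binding to cytokine receptors, had 1552, 1536 and 1661 scaled reads in cAMP with IL-13, against 478, 422 and 463 in cAMP. All libraries with IL-13 were more than 3 times as high as any cAMP library (log2 change 1.80 ± 0.07, limma adjusted p = 3.76e-11). Cish lies on chromosome 9 (107296659 to 107302784, GRCm38.p6). Socs2, an inhibitor of growth hormone signalling, had 428, 404 and 436 scaled reads in cAMP with IL-13, against 274, 249 and 268 in cAMP (log2 change 0.68 ± 0.08, limma adjusted p = 3.25e-05). In vehicle, where neither agent was present, Socs2 had 1059, 853 and 941, above both groups. Socs3, the inhibitor induced by IL-6 and STAT3, had 1248, 1205 and 1232 scaled reads in cAMP with IL-13, against 941, 873 and 927 in cAMP (log2 change 0.43 ± 0.09, limma adjusted p = 0.0129). The adjusted p of Socs3 was 0.057 without cAMP 2 and 0.0635 and 0.0607 without cAMP with IL-13 1 and 3. Socs1 had few reads (14.6, 17.1 and 22.2 scaled reads in cAMP with IL-13, against 14.3, 9.43 and 8.94 in cAMP) and an adjusted p of 0.194. Its libraries did not overlap, which was so for 24.8% of all tested genes.

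Start windows are given for Cish, Socs3 and the hepcidin gene Hamp (below among the rises), 5′ to 3′ from RefSeq, build GRCm38.p6. Each window has 300 bases, from 250 bases before to 50 bases after the start. These genes were picked without a rule, so they do not stand for the called genes. Cish is at chr9:107296409-107296708 on the plus strand, Socs3 at chr11:117969317-117969616 on the minus strand and Hamp at chr7:30943980-30944279 on the minus strand. Capitals mark every match to TTCNNNGAA, the palindromic site that STAT dimers recognise, which reads the same on both strands. The table gives 1 start for Socs3, which lies inside the span of the gene in the RefSeq gene table (117966079 to 117970336), so positions for Socs3 are counted from that start and not from the outer end of the gene.
Cish: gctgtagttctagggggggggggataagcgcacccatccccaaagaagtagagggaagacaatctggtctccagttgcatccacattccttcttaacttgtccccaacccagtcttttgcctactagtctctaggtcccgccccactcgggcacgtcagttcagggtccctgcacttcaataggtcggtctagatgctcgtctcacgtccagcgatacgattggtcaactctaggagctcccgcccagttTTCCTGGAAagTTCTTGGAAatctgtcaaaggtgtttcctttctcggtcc
Socs3: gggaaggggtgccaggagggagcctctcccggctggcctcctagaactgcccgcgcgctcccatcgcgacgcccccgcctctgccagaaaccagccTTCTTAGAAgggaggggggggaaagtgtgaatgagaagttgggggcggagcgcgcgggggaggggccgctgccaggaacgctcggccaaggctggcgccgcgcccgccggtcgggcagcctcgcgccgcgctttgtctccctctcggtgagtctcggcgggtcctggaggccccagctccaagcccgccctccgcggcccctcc
Hamp: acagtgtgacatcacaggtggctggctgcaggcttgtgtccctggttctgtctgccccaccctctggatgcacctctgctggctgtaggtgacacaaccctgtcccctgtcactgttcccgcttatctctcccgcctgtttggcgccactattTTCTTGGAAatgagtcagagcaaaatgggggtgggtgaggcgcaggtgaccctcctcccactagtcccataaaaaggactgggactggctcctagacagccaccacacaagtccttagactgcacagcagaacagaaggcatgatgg
Cish held 2 matches, which begin at the base of the start itself (position 1) and at position 12 after it. Socs3 held 1 match that begins 154 bases before this start and Hamp 1 that begins 97 bases before it. Of all 32851 windows of the table, 8.3% held this motif. The version with 4 bases between TTC and GAA, which STAT6 prefers, was in 0 of these windows and in 6.95% of all. A symbol match gave a window to 76.2% of the tested genes, under the 80% needed, so a comparison of called and other genes is void. A match is a description of the letters and not a site of binding.

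The largest rise among well-expressed genes was in Tnfrsf21, which encodes death receptor 6. It had 966, 839.9 and 857 scaled reads in cAMP with IL-13, against 162, 222 and 188 in cAMP (log2 change 2.22 ± 0.13, limma adjusted p = 8.86e-09). The rise was more than 4-fold, and vehicle libraries, at 179, 211 and 243, lay with the cAMP ones. Rnf19b, a RING-type ubiquitin ligase, had 5629.6, 5568 and 5501 scaled reads in cAMP with IL-13, against 1737, 1733 and 1766 in cAMP (log2 change 1.67 ± 0.06, limma adjusted p = 2.25e-12). The spread within each group of Rnf19b was a few percent of the level. Nrbf2, a subunit of the autophagy lipid kinase complex, had 1714, 1617 and 1716 scaled reads in cAMP with IL-13, against 696, 734 and 739.6 in cAMP (log2 change 1.22 ± 0.06, limma adjusted p = 3.96e-10). Klb encodes beta-Klotho, the coreceptor for the hormones FGF21 and FGF15, and had 386, 397 and 404 scaled reads in cAMP with IL-13, against 175, 194 and 168 in cAMP (log2 change 1.14 ± 0.12, limma adjusted p = 5.58e-06). It had 36.7, 54.2 and 45.6 in vehicle, so both groups with cAMP lay above vehicle and the group with IL-13 farthest.

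Several of the large rises were genes of surface, matrix or immune proteins. Mmp13, a collagenase, had 153, 161 and 167 scaled reads in cAMP with IL-13, against 66.2, 62.5 and 50.1 in cAMP (log2 change 1.42), and Clec7a, the beta-glucan receptor dectin-1, 239, 232 and 222 against 88.6, 115 and 79.6 (2.45-fold). Adgrl2, an adhesion receptor, had 1196, 1092 and 1231 against 427, 473 and 444 (log2 change 1.39). Col27a1, a fibrillar collagen chain, had 487, 433 and 445 against 185, 183 and 243 (log2 change 1.17). Each of these 4 genes was called under all 27 alternative settings. Elf3, an epithelial transcription factor, had 192, 189 and 175 scaled reads in cAMP with IL-13, against 85.6, 93.1 and 70.7 in cAMP (log2 change 1.16), while vehicle had 200.4, 183 and 148. Duoxa2, the maturation factor of the peroxide-producing oxidase Duox2, had 213, 268 and 239.8 against 91.7, 109.6 and 111 (log2 change 1.20), and 259, 232 and 247 in vehicle. For both of these genes the cAMP libraries were the low ones and the cAMP with IL-13 libraries overlapped the vehicle range. Of the 15 largest rises by the naming rule, Pcyox1l, Ccl7, Fmnl2 and Rnf152 complete the list beside those given, with log2 changes of 1.45, 1.34, 1.21 and 1.19.

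The largest fold changes of all were in genes with few reads in cAMP, 3 of which were named after their values were seen. Olr1, the scavenger receptor LOX-1, had 343 reads over the libraries of cAMP with IL-13 and 11 over those of cAMP, a ratio per read sequenced of 26.9 (95% counting interval 14.8 to 54.3). Ch25h, which makes 25-hydroxycholesterol, had 244 and 12 reads (ratio 17.5, interval 9.84 to 34.4). Aldh1a3, a retinoic acid-producing enzyme, had 61 reads against 1 (ratio 52.5, interval 9.08 to 2108). These intervals cover counting error only. In scaled reads Ch25h had 65.9, 78.5 and 73.2 in cAMP with IL-13, 4.07, 4.71 and 3.58 in cAMP and 16.8, 18.3 and 5.7 in vehicle, and every cAMP library was below every vehicle library. Serpina3g had 155 reads against 9 (ratio 14.8, interval 7.61 to 33) and Serpina3f 56 against 10 (ratio 4.82, interval 2.44 to 10.6). Both belong to a family of near-identical antitrypsin-like genes whose reads the counting could have split, so their own values are uncertain.

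Genes known to answer IL-4 and IL-13 in macrophages and epithelium were in part expressed here: 16 of 30 passed the level filter. Of these, 6 rose and 1 fell (2.52% and 1.38% of all tested genes). Ccl24, the eosinophil attractant eotaxin-2, had 77 reads against 2 (ratio 33.2, interval 8.87 to 279). Tgm2, tissue transglutaminase, had 220240, 210110 and 216570 scaled reads in cAMP with IL-13, against 138400, 128100 and 135350 in cAMP (log2 change 0.69 ± 0.06, limma adjusted p = 1.44e-06). Postn, the matrix protein periostin, had 40.7, 53.2 and 53 scaled reads in cAMP with IL-13, against 16.3, 18.9 and 12.5 in cAMP (log2 change 1.57 ± 0.31, limma adjusted p = 0.00494). The other risers were Cish, the transcription factor Klf4 (log2 change 0.50) and the adhesion molecule Vcam1 (0.35). The call of Klf4 was lost without cAMP 3 (adjusted p = 0.0529) or cAMP with IL-13 1 (0.065), and that of Vcam1 without cAMP 1 or 3 or cAMP with IL-13 2 or 3 (0.0922 to 0.182). Myc was the member that fell, with 2272, 2316 and 2283 scaled reads in cAMP with IL-13, against 3040.5, 2706 and 2935 in cAMP (log2 change -0.34). Arg1, a hallmark of IL-4-treated macrophages and a urea cycle enzyme of hepatocytes, had a log2 change of 0.07 (adjusted p = 0.813).

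The list of STAT3 targets and acute phase genes had 6 higher and 3 lower members of 45 (2.52% and 1.38% of all tested genes). Pim1, a survival kinase induced by STATs, had 4121, 3925 and 4137 scaled reads in cAMP with IL-13, against 2342, 2303 and 2317 in cAMP (log2 change 0.81 ± 0.05, limma adjusted p = 1.13e-08). Il6ra, the IL-6 receptor chain, rose as well (log2 change 0.54), beside Hamp, Socs3, Serpina3g and Serpina3f. Saa1, Hp and Fgb, which encode serum amyloid A, haptoglobin and a fibrinogen chain, had log2 changes of 0.08, 0.02 and 0.05 and did not pass the test. Bcl3 (log2 change -0.33), Myc and Bcl2l1 (-0.26) fell. The call of Il6ra was lost without cAMP 2 or any cAMP with IL-13 library (adjusted p 0.0752 to 0.119), that of Socs3 as given above, and that of Bcl2l1 without cAMP 1, cAMP with IL-13 2 or cAMP with IL-13 3 (0.0845 to 0.111).

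Of 33 tested inflammation and NF-kB target genes, 10 were higher and 1, Bcl3, was lower (2.52% and 1.38% of all tested genes). Ccl2 and Ccl7, neighbouring genes of monocyte attractants, rose together: Ccl2 had 4653, 4918 and 4728 scaled reads in cAMP with IL-13, against 2791, 2836 and 2647 in cAMP (log2 change 0.79 ± 0.06, limma adjusted p = 2.19e-07). Nfkb1, the p105 and p50 subunit gene of NF-kB, had 5059, 5078 and 5044 scaled reads in cAMP with IL-13, against 2843, 2946 and 3027 in cAMP (log2 change 0.78 ± 0.06, limma adjusted p = 9.36e-08). Cxcl2, a neutrophil attractant, had 99.2, 87.5 and 98.2 against 55, 51.9 and 59 (log2 change 0.77), and 274, 248 and 236 in vehicle, so both groups lay far below vehicle. Il1a, Il1r1, Il1rn, Vcam1, Cxcl10 and Relb were the other risers (log2 changes 0.23 to 0.70). Nfkbia and Tnfaip3, the usual feedback targets of NF-kB, had log2 changes of 0.02 and -0.19 and did not pass the test. The count of 10 was 6 without cAMP 3, without cAMP with IL-13 2 and without cAMP with IL-13 3. Il1a, Vcam1, Cxcl10 and Relb were the members that lost their calls without single libraries of the comparison (adjusted p up to 0.212), whereas Ccl2, Ccl7, Nfkb1, Cxcl2, Il1r1 and Il1rn kept theirs in all 27 alternatives.

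The hepcidin genes and the inhibitor Smad7 rose. Hamp, whose product hepcidin lowers iron export into blood, had 11354, 10624 and 11301 scaled reads in cAMP with IL-13, against 6969, 6144 and 6802 in cAMP (log2 change 0.74 ± 0.07, limma adjusted p = 1.5e-06). Its paralog Hamp2 had 533, 419 and 471 against 245, 242 and 289 (log2 change 0.87), and reads of these 2 close copies may have been split between them. Smad7, an inhibitor of BMP and TGF-beta signalling, had 599, 653 and 589 scaled reads in cAMP with IL-13, against 369, 348 and 402 in cAMP (log2 change 0.72 ± 0.11, limma adjusted p = 0.000404). Slc40a1, the iron exporter ferroportin, and Tfrc, the transferrin receptor, also rose (log2 changes 0.31 and 0.30). Id1 and Bmp6, a target and a ligand of the BMP pathway that drives hepcidin, had log2 changes of -0.18 and -0.15 and did not pass the test. Over the list of 30 hepcidin, iron and BMP-SMAD genes, 5 were higher and 1, Atoh8, was lower (2.52% and 1.38% of all tested genes). The call of Tfrc was lost in 15 of 27 alternatives, among them without cAMP 1, cAMP 3 or any cAMP with IL-13 library (adjusted p 0.116 to 0.222), and that of Atoh8 without cAMP with IL-13 3 (0.0598).

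G6pc, the catalytic subunit of glucose-6-phosphatase and the last step of glucose production, was lower in cAMP with IL-13: 766, 792 and 805 scaled reads in cAMP with IL-13, against 1347, 1352 and 1370.2 in cAMP. The groups were separated by a wide gap, at a fold of 0.581 (log2 change -0.78 ± 0.06, limma adjusted p = 2.93e-07), and vehicle had 76.6, 67 and 67.5. Against vehicle, the log2 change was 3.47 for cAMP with IL-13 and 4.25 for cAMP, so the gene stayed above vehicle with IL-13. G6pc lies on chromosome 11 (101367716 to 101377903, GRCm38.p6). Pck1, the cytosolic phosphoenolpyruvate carboxykinase that commits carbon to glucose, had 14431, 14064 and 14254 scaled reads in cAMP with IL-13, against 18718, 18026 and 18769 in cAMP (log2 change -0.38 ± 0.05, limma adjusted p = 0.000125). Vehicle had 1142, 1192 and 1015 for Pck1. Gpt2, the mitochondrial alanine aminotransferase, had 6800, 6926 and 7015 scaled reads in cAMP with IL-13, against 9716, 9923 and 9483 in cAMP (log2 change -0.49 ± 0.06, limma adjusted p = 2.15e-05), and its cAMP with IL-13 libraries were also below the vehicle libraries (7092, 8053 and 8385).

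The other genes of the gluconeogenesis list mostly did not pass the test: of 26, 3 fell, 1 rose and 22 were not called. Of all tested genes, 1.38% were called lower and 2.52% higher. The list holds the genes the study chose on these samples and is no independent evidence of a direction. Fbp1, fructose-1,6-bisphosphatase, had 6221, 6441 and 6558 scaled reads in cAMP with IL-13, against 6469, 6448 and 6289 in cAMP, and the groups overlapped (log2 change 0.00 ± 0.07). Pcx, pyruvate carboxylase, had 11024, 10960 and 11113 against 10730, 10239 and 10260 (log2 change 0.08 ± 0.07, adjusted p = 0.718). Ppargc1a, the coactivator PGC-1alpha, had 571, 597 and 604 against 639.7, 613 and 689, a log2 change of -0.13 ± 0.19 (adjusted p = 0.903). Its libraries did not overlap, which was so for 24.8% of all tested genes. Hnf4a, the nuclear receptor that holds hepatocyte identity, had 5443, 5312 and 5466 scaled reads in cAMP with IL-13, against 6669.8, 6439 and 6401 in cAMP (log2 change -0.27 ± 0.07, limma adjusted p = 0.0256). The call of Hnf4a did not hold without any one of the 6 libraries of the comparison (adjusted p 0.123, 0.0604 and 0.0716 without cAMP 1, 2 and 3, and 0.0844, 0.119 and 0.0844 without cAMP with IL-13 1, 2 and 3). Foxo1, the insulin-restrained activator of G6pc and Pck1, had a log2 change of -0.17 ± 0.08 (adjusted p = 0.415). Slc16a1, the lactate and pyruvate carrier MCT1, was the riser of the list (log2 change 0.30).

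**Figure D2:**
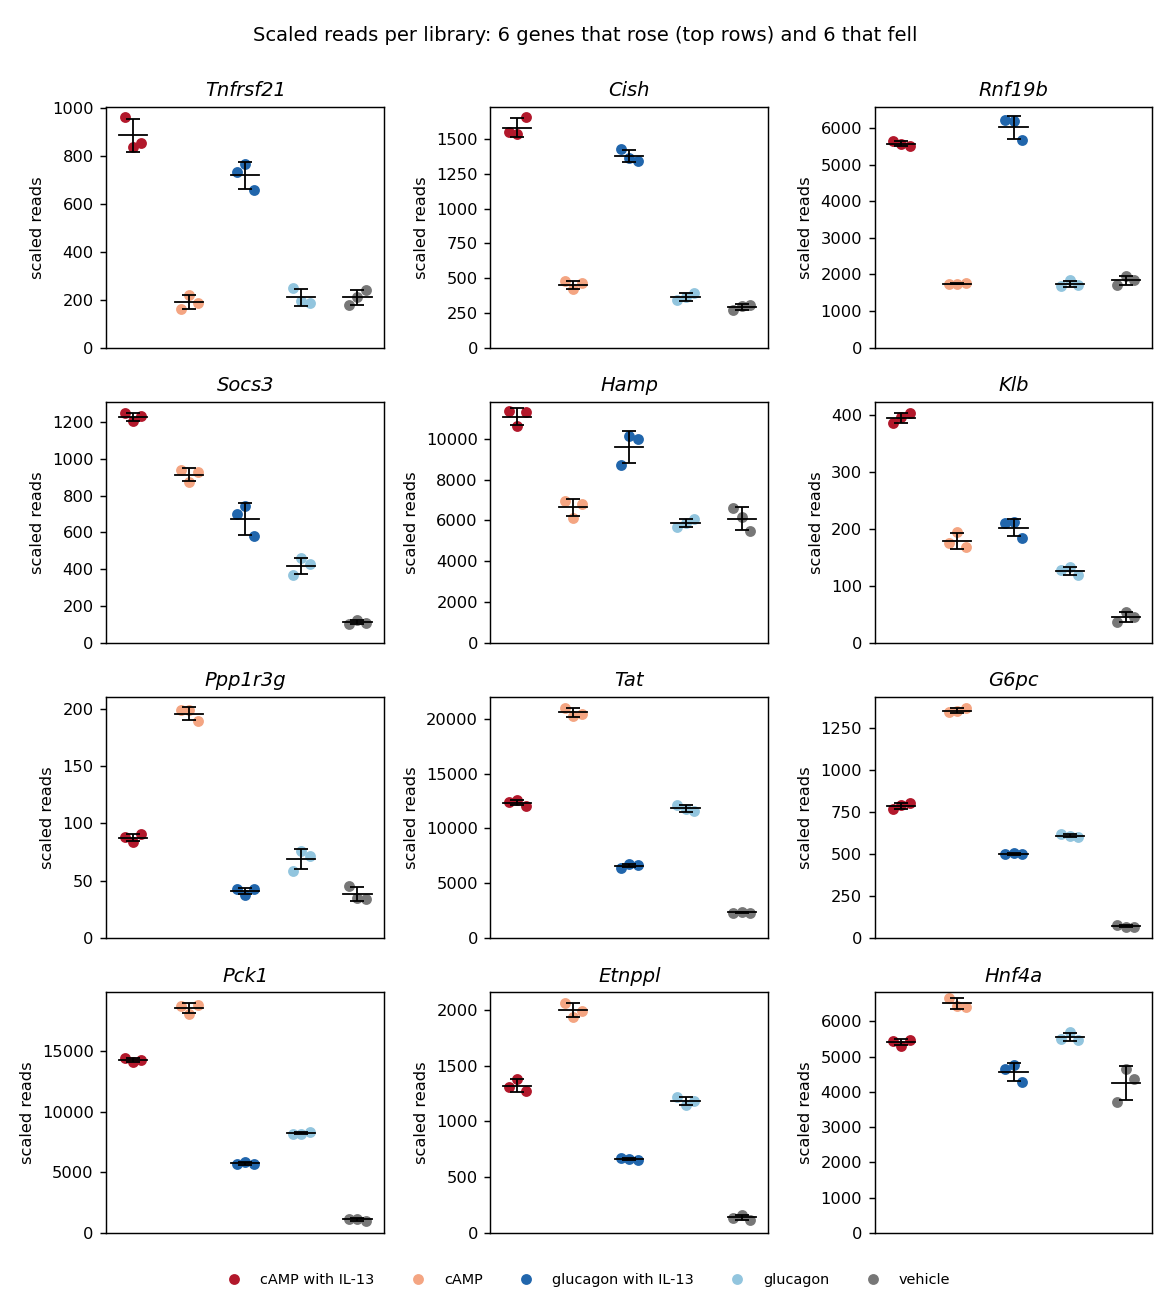
Scaled reads per library for 12 genes, with 1 point per library, a line at the mean of 3 and a bar for the SD. Groups run from cAMP with IL-13 (dark red), cAMP (orange), glucagon with IL-13 (dark blue) and glucagon (light blue) to vehicle (grey), and every vertical axis starts at 0. The upper 6 genes were higher and the lower 6 lower in cAMP with IL-13, and for G6pc the libraries lie at 766 to 805 against 1347 to 1370 in cAMP.

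The same window around the start of Pck1 is shown because the cAMP response element of this promoter is well known. It is at chr2:173152823-173153122 on the plus strand of GRCm38.p6, and capitals mark the short element CGTCA, the reverse complement of TGACG, that CREB recognises.
Pck1: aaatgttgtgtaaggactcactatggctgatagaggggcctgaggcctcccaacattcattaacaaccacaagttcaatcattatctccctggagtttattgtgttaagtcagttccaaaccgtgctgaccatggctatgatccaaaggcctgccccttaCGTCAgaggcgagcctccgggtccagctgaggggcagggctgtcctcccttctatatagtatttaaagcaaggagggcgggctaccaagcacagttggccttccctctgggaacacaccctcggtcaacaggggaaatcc
The element begins 90 bases before the start. On either strand it was in 20.8% of all 32851 windows, also once in that of Cish and in none of those of Socs3, Hamp and G6pc. The windows of G6pc and Pck1 held 0 matches to TTCNNNGAA and none overlapped the element in the other windows. No match says only that these letters are not in this window, and other forms of the element were not searched.

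Among cAMP and CREB target genes, 9 of 41 were lower and 0 higher, against 1.38% lower and 2.52% higher among all tested genes. This list was written with earlier results of these data known and is no independent evidence of a direction. The count of lower members was 6 to 10 when single libraries were left out, and 1 member was called higher without cAMP 1 or without vehicle a. The early genes Nr4a1, Nr4a2, Nr4a3, Sik1, Per1 and Crem were not among the fallers. Nr4a1, an orphan nuclear receptor induced by CREB, had 3532, 3549 and 3589 scaled reads in cAMP with IL-13, against 3702, 3369 and 3727 in cAMP (log2 change -0.02 ± 0.07), with 302, 341 and 335 in vehicle. Nr4a2, Nr4a3, Sik1 and Per1 had log2 changes of 0.08, 0.00, 0.03 and -0.00, and Crem 0.26 (adjusted p = 0.0871). The fallers were metabolic genes and signalling regulators: Ppp1r3g, G6pc, Tat, Dusp4, Sds, Ppp1r3c, Pck1, Creb3l3 and Gadd45b. The calls of Sds, Ppp1r3c and Gadd45b were lost without cAMP 1, cAMP 3 or any cAMP with IL-13 library (adjusted p 0.0693 to 0.26). Creb3l3, a liver transcription factor of the fasting response, had 1419, 1389 and 1399.5 scaled reads in cAMP with IL-13, against 1894, 1649 and 1903 in cAMP (log2 change -0.37). Dusp4, a MAP kinase phosphatase, had 351, 376 and 336 against 510.3, 487 and 481 (log2 change -0.47). Unlike G6pc, Pck1 and Tat, Dusp4 and Gadd45b were lower in cAMP than in vehicle (log2 changes -0.36 and -0.92). With IL-13 they lay still farther below vehicle.

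Genes of amino acid breakdown and the urea cycle gave 7 lower and 0 higher of 41 (1.38% and 2.52% of all tested genes). Tat, tyrosine aminotransferase, had 12405, 12558 and 12073 scaled reads in cAMP with IL-13, against 21042, 20229 and 20493 in cAMP (log2 change -0.74 ± 0.04, limma adjusted p = 1.79e-09), and vehicle had 2295, 2408 and 2297. Slc25a15, the mitochondrial ornithine carrier, had 2095, 2100.2 and 2170.1 scaled reads in cAMP with IL-13, against 2825, 2815 and 2812 in cAMP (log2 change -0.41 ± 0.05, limma adjusted p = 5.21e-05). Cps1, the entry enzyme of the urea cycle, had 4277, 4291 and 4501 scaled reads in cAMP with IL-13, against 5264, 5769.5 and 5599 in cAMP (log2 change -0.35 ± 0.07, limma adjusted p = 0.00661). Sds, serine dehydratase, had 123, 115 and 118 against 164, 149.7 and 160.1 (log2 change -0.41), and Gls2, Aass and Oat completed the 7 with log2 changes of -0.25, -0.27 and -0.27. Ass1 and Otc, urea cycle enzymes, had 0.23 and 0.26 and did not pass the test. The count of 7 was 4, 5 and 4 without cAMP 1, 2 and 3, 4, 3 and 3 without cAMP with IL-13 1, 2 and 3, and 11 without vehicle a. The calls of Sds, Gls2, Aass and Oat were those lost (adjusted p up to 0.156), while Tat, Slc25a15 and Cps1 were called under all 27 alternatives. Etnppl, which breaks down phosphoethanolamine, had 1307, 1384 and 1276 scaled reads in cAMP with IL-13, against 2061, 1936 and 1994 in cAMP (log2 change -0.59 ± 0.08, limma adjusted p = 0.000103).

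Of 22 glycogen genes tested, 4 fell and 0 rose (1.38% and 2.52% of all tested genes), and 1 rose without vehicle a. Ppp1r3g, which brings protein phosphatase 1 to glycogen, had 87.8, 83.9 and 90.5 scaled reads in cAMP with IL-13, against 199, 199 and 189 in cAMP (log2 change -1.15 ± 0.13, limma adjusted p = 2.18e-05), and 45.1, 35.1 and 34.2 in vehicle. Gys2, liver glycogen synthase, had 288, 284 and 291 scaled reads in cAMP with IL-13, against 357, 414 and 365 in cAMP (log2 change -0.39 ± 0.08, limma adjusted p = 0.00475), and its cAMP with IL-13 libraries lay in the vehicle range (278, 287 and 300.3). Ppp1r3c, another targeting subunit (log2 change -0.41), and Epm2a, the glycogen phosphatase laforin (-0.66, 129 reads against 177), were the other fallers. The call of Ppp1r3c was lost in 13 of 27 alternatives, among them without cAMP 1, cAMP 3 or any cAMP with IL-13 library (adjusted p 0.0863 to 0.26), and that of Epm2a without any cAMP library and without cAMP with IL-13 1 or 3 (0.0547 to 0.186). The list's count was 2 without cAMP 1, cAMP 3, cAMP with IL-13 1 or cAMP with IL-13 3. Pygl, liver glycogen phosphorylase, had a log2 change of -0.01 (adjusted p = 0.985). Slc2a2, the glucose transporter GLUT2, had 724, 760.5 and 796 scaled reads in cAMP with IL-13, against 1024, 1092 and 932 in cAMP (log2 change -0.42 ± 0.06, limma adjusted p = 0.000558).

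Sterol and bile acid genes showed falls beside the rise of Klb: 3 of 21 bile acid genes were lower and 1 higher. The shares over all tested genes were 1.38% lower and 2.52% higher. Abcg5 and Abcg8, neighbouring genes that form the sterol exporter of the canalicular membrane, had log2 changes of -0.50 and -0.61. Abcg8 had 149, 175 and 169 scaled reads in cAMP with IL-13, against 246, 244 and 259 in cAMP, and Abcg5 had 187, 164 and 166 against 243, 249.8 and 239. Cyp8b1, the sterol 12-alpha-hydroxylase, had 184, 189 and 176 against 276, 240.4 and 261 (log2 change -0.50). The call of Cyp8b1 was lost without cAMP 1, cAMP 3 or any cAMP with IL-13 library (adjusted p 0.0504 to 0.0988), and that of Abcg5 without cAMP with IL-13 2 (0.0752) or 3 (0.0713). The count of 3 was 1 without cAMP with IL-13 2 and 1 without cAMP with IL-13 3. Of 27 cholesterol synthesis and uptake genes, 1 was higher, Pmvk, whose call was lost in 15 of 27 alternatives. Fgf21, the hormone that uses beta-Klotho as its coreceptor, had 392, 373 and 376 scaled reads in cAMP with IL-13, against 283, 269 and 284 in cAMP (log2 change 0.45 ± 0.11, limma adjusted p = 0.0229), and its call was lost without any one of the 6 libraries (adjusted p 0.068 to 0.104).

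Further falls of the naming rule lay outside the lists. Fam13a had 70.8, 84.8 and 82.8 scaled reads in cAMP with IL-13, against 125, 148 and 149 in cAMP (log2 change -0.82), Kif21b, a kinesin, 169, 164 and 170.5 against 294, 265 and 308 (-0.78), and Ank3, the membrane scaffold ankyrin-G, 311, 299 and 289.9 against 513, 504 and 517 (-0.77). Cldn14, a tight junction claudin, had 927, 942 and 955 scaled reads in cAMP with IL-13, against 1414, 1324 and 1403 in cAMP (log2 change -0.55). Adora1, the adenosine A1 receptor, and Gpr146, an orphan receptor, had log2 changes of -0.59 and -0.55. Plet1, Arhgap22, Hs3st6 and Sgk1 had -0.67, -0.58, -0.60 and -0.57. The calls of Hs3st6 and Sgk1 were each lost without cAMP 1, cAMP 3, cAMP with IL-13 1 and cAMP with IL-13 3 (adjusted p 0.0563 to 0.101).

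The remaining lists held few calls, to be read beside 2.52% higher and 1.38% lower among all tested genes. FOXO targets had 4 lower and 1 higher of 38, with G6pc and Pck1 among the lower, and 2 lower without cAMP with IL-13 1. This list follows a pathway the study had picked. Glycolysis and glucose uptake had 2 lower and 1 higher of 24, lipogenesis 2 lower and 1 higher of 25, fatty acid oxidation and ketogenesis 2 lower and 1 higher of 28, and cytochrome P450 and xenobiotic genes 2 lower and 1 higher of 32. Ahr, the dioxin receptor, was the riser of that last list, with 767, 774 and 814 scaled reads in cAMP with IL-13, against 466, 517 and 539 in cAMP (log2 change 0.63). Growth and cell cycle genes had 6 higher and 3 lower of 33, insulin and IGF genes 3 higher and 0 lower of 26, and interferon response genes 4 higher and 1 lower of 36. Grb10, an adaptor that restrains the insulin receptor, had 381, 416 and 404 scaled reads in cAMP with IL-13, against 216, 255 and 263 in cAMP (log2 change 0.71 ± 0.10, limma adjusted p = 0.000199), and Igf1, insulin-like growth factor 1, had 6066, 6067 and 5987 against 4618, 4809 and 4526 (log2 change 0.38). Unfolded protein and amino acid stress genes had 3 higher and 0 lower of 32, heat shock and dissociation stress genes 2 higher and 1 lower of 30, hepatocyte identity factors 2 higher and 1 lower of 30, coagulation genes 1 higher and 1 lower of 30, and clock genes 1 higher and 2 lower of 19. Of 30 genes of the mitochondrial respiratory chain, 0 were called in limma and also under voom. In 3 of them the libraries did not overlap, against 24.8% of all tested genes. Many of these small counts depended on single libraries. Fatty acid oxidation had 1 lower and 0 higher without any one of the 6 libraries of the comparison. P450 genes had 1 lower without cAMP 1, cAMP 3 or any cAMP with IL-13 library, and 2 higher without vehicle a or c. Interferon genes had 2 higher without cAMP with IL-13 2, and 0 lower without cAMP 1, cAMP 3, glucagon 1 or any library of either IL-13 group. Hepatocyte factors had 0 lower without any one of the 6 libraries and 2 lower without vehicle a, glucagon 1 or glucagon 3, and they had 1 higher without cAMP 2 or any cAMP with IL-13 library and 4 higher without vehicle c. Growth genes had 3 higher without cAMP 3, cAMP with IL-13 1 or cAMP with IL-13 3, and 1 lower without cAMP with IL-13 3. Clock genes had 0 lower without cAMP 1, 1 lower without any other of the 6 libraries and 4 lower without vehicle a. Heat shock genes had 0 lower without cAMP 1, cAMP 3 or any cAMP with IL-13 library and 2 lower without vehicle a, and lipogenesis had 3 higher without vehicle a. FOXO targets had 0 higher without cAMP 2, cAMP 3, cAMP with IL-13 1 or cAMP with IL-13 3, and 2 higher without vehicle a.

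**Figure D3:**
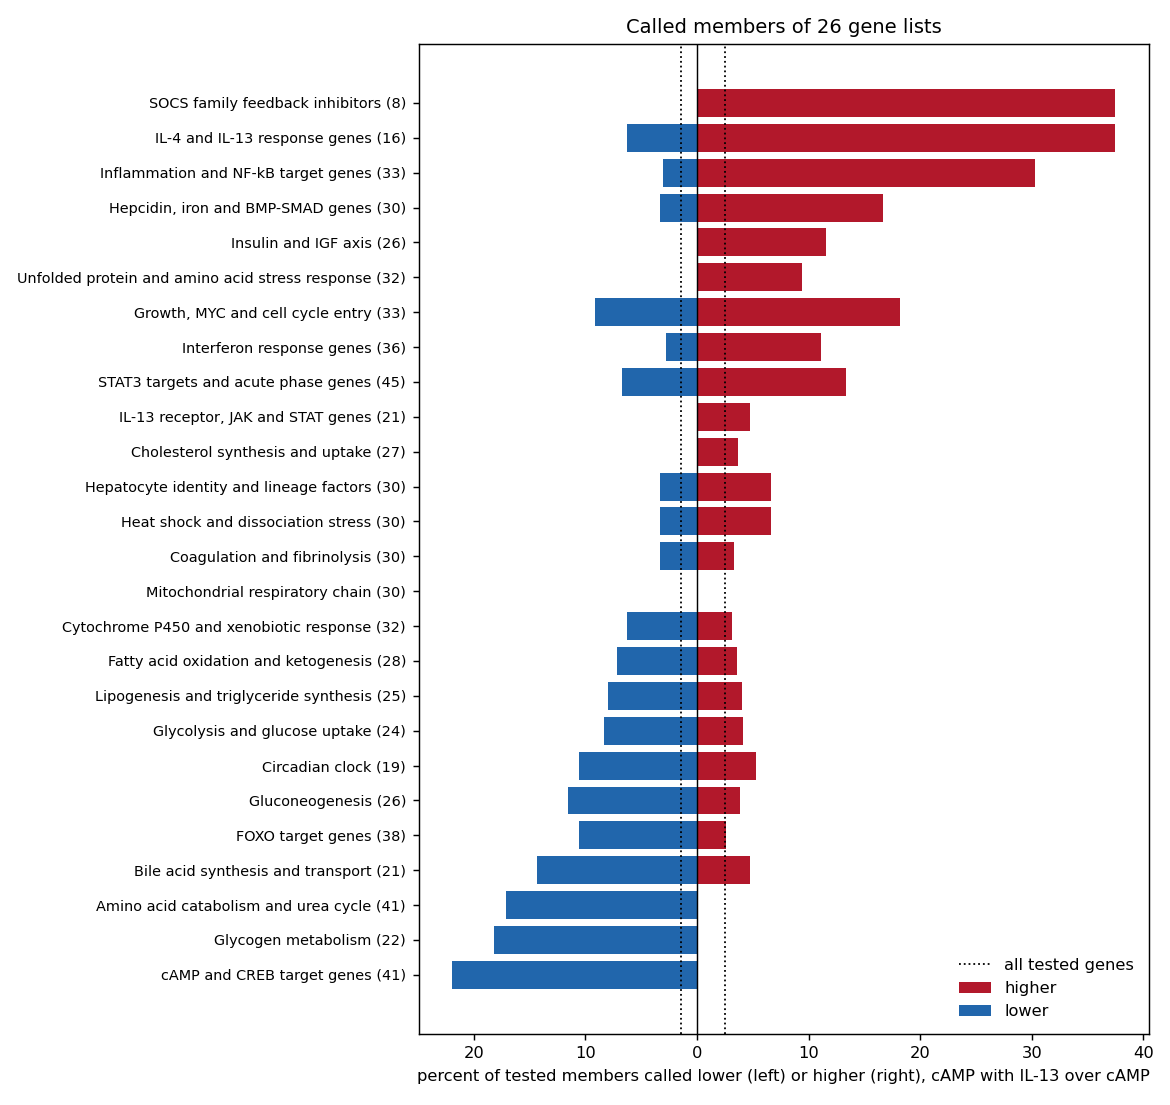
Bars give, for 26 gene lists, the percent of tested members called higher (red, right) or lower (blue, left) in cAMP with IL-13 against cAMP, with the number of tested members in brackets. The dotted lines mark the 2.52% higher and 1.38% lower among all tested genes. The lists were written with earlier results of these data known. The SOCS family and the IL-4 and IL-13 response genes reach farthest to the right and the cAMP and CREB targets farthest to the left.

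Markers of other liver cells were read as summed levels over each list. The 16 Kupffer cell and macrophage markers summed to 10632 to 10958 scaled reads in cAMP with IL-13 and 11036 to 11568 in cAMP, and of 15 tested members 1, Cd68, fell (log2 change -0.23). The call of Cd68 was lost without cAMP 1 or cAMP 3 and without any of the cAMP with IL-13 libraries (adjusted p 0.056 to 0.185). Clec4f, which defines Kupffer cells, had 126 to 129 in cAMP with IL-13 and 112 to 125 in cAMP. Sinusoidal endothelial markers summed to 2739.8 to 2893 in cAMP with IL-13 and 2858 to 3030.1 in cAMP. Of 14 endothelial markers 2 rose, Fcgr2b (0.73) and Pecam1 (0.59), and 3 fell, Lyve1 (-0.54), Eng (-0.49) and Tek (-0.72), whose call was lost without any one of the 6 libraries (adjusted p 0.0699 to 0.218). Stellate cell markers summed to 956 to 997 in cAMP with IL-13 and 1018 to 1070 in cAMP, with 0 of 11 called, and Lrat, which defines these cells, was at 0 to 1.63 in cAMP with IL-13 and 2.04 to 3.54 in cAMP. Cholangiocyte markers summed to 14491 to 14658 in cAMP with IL-13 and 12994 to 13452 in cAMP, with 0 of 5 called (1 without vehicle a). The duct keratin Krt19 was at 5.78 to 15.3 in cAMP with IL-13 and 10.2 to 16.5 in cAMP. Nearly all of the sum thus came from other listed genes, and whether duct cells gave it was not tested. Two-sided exact permutation tests of the 3 against 3 sums gave p = 0.1 for Kupffer, stellate and cholangiocyte markers, the smallest value they can give, and p = 0.2 for endothelial ones. Lymphocyte markers had 0 of 13 members above the level filter and neutrophil markers 2 of 7, with 0 called. The part of these cells in the called changes was not tested, and in bulk RNA fewer cells of a type and less RNA per cell cannot be told apart.

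Markers of the periportal zone, where gluconeogenesis is highest, had 6 lower and 0 higher of 15: G6pc, Etnppl, Sds, Pck1, Cps1 and Gls2. Among all tested genes 1.38% were lower and 2.52% higher. Each of these 6 genes was already given above, so their falls are counted here again. The calls of Sds and Gls2 were lost without cAMP 1, cAMP 3 or any cAMP with IL-13 library (adjusted p 0.0692 to 0.129), and 1 marker was higher without vehicle a. Other periportal markers, such as Cyp2f2 and Hsd17b13 (log2 changes 0.19 and -0.06), did not pass the test. Pericentral markers had 2 lower, Oat and Nt5e, and 0 higher of 13, with 0 lower without cAMP 2 or cAMP with IL-13 3 and 1 lower without the others of these 6 libraries except cAMP 1. Glul and Cyp2e1, which define the zone around the central vein, had log2 changes of 0.01 and 0.08.

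IL-13 was also added to glucagon, in libraries that share none with the comparison above. There, 728 genes (5.73%) were called in glucagon with IL-13 against glucagon, 445 higher (3.5%) and 283 lower (2.23%). The genes called higher in both comparisons numbered 230, which is 71.9% of those higher with cAMP and 51.7% of those higher with glucagon. For lower genes the count was 90, or 51.4% and 31.8%, and 0 genes were called in opposite directions. Both comparisons took the spread of each gene from the same fit, so their calls were not independent. Of the 320 genes higher with cAMP, 316 had a positive change with glucagon, and 170 of the 175 lower ones had a negative change, while 64.4% of all tested genes had the same sign in both comparisons. The count of 728 was 1218 without vehicle a, 483 and 453 without glucagon 1 and 3, and 430 and 437 without glucagon with IL-13 1 and 2. Across all genes, which are not independent replicates, Pearson's r of both log2 changes was 0.43. Tnfrsf21 had 732, 769 and 658 in glucagon with IL-13 against 251, 195 and 187 in glucagon (log2 change 1.77), Cish 1429, 1366 and 1340.1 against 340.2, 362 and 396 (1.91) and Tat 6422, 6709.5 and 6654 against 12160, 11786 and 11570 (-0.84). Olr1, Ch25h and Aldh1a3 had log2 changes of 4.52, 2.50 and 4.21 there.

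The test of the difference between both IL-13 effects called 0 genes in limma and 0 in voom. Of all genes, 608 (4.79%) had an unadjusted p under 0.05, and the lowest adjusted p was 0.32. G6pc was one of the 3 genes at that lowest value: with glucagon it had 498, 505 and 498 in the IL-13 group against 619.6, 607 and 602 (log2 change -0.28 ± 0.06), and the difference of the effects was -0.50 ± 0.09 on the log2 scale. The fall of Pck1 was -0.52 with glucagon and -0.38 with cAMP, a difference of 0.14 ± 0.07 (adjusted p = 0.998). Elf3 and Rnf152, among the large rises with cAMP, had 0.45 and 0.43 with glucagon, and differences of 0.70 and 0.76 (adjusted p = 0.796 and 0.873). No gene was thus shown to respond differently to IL-13 under the different stimuli. Leaving out vehicle a gave 2 called genes for the difference and leaving out cAMP with IL-13 3 gave 1.

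**Figure D4:**
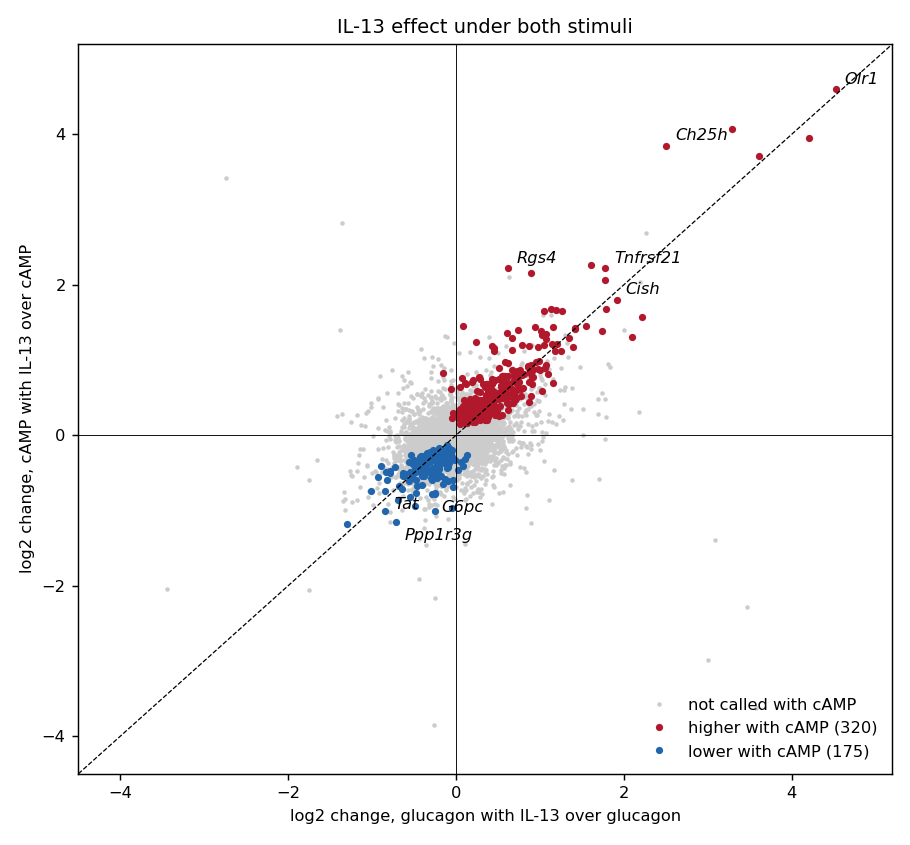
Each point is a gene, with the log2 change of glucagon with IL-13 over glucagon on the horizontal axis and of cAMP with IL-13 over cAMP on the vertical axis. Red and blue points are the 320 genes higher and 175 lower in the cAMP comparison, and the dashed line marks equal changes. Of the red points 316 lie right of 0, and of the blue points 170 lie left of it.

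Genes were also sorted by their response to glucagon against vehicle, a comparison with no library in common with IL-13 added to cAMP. Both comparisons took the spread of each gene from the same fit, so a gene with a small spread was easier to call in both. The part of this in the counts of calls was not tested. Glucagon raised 1188 genes (9.35%) and lowered 1211 (9.53%). Of those it raised, 80 (6.73%) were lower and 65 (5.47%) higher in cAMP with IL-13 than in cAMP. A negative change was seen in 65.7% of them and in 50.2% of all tested genes. Of those it lowered, 90 (7.43%) were higher and 24 (1.98%) lower. Among the 10304 genes that glucagon did not call, 165 (1.6%) were higher and 71 (0.689%) lower. The median log2 change was -0.05 for raised genes, 0.03 for lowered genes and 0.00 for the rest. Of the 146 genes that glucagon raised at least 2-fold, 14 fell and 12 rose with IL-13 and cAMP. The fallers hold G6pc, Etnppl, Pck1, Tat and Slc25a15, and the risers hold Klb and Nppc, the C-type natriuretic peptide gene. Nr4a3, Ppargc1a and Irs2, raised by glucagon with log2 changes of 7.51, 3.63 and 2.02, had log2 changes of 0.00, -0.13 and -0.15 with IL-13 and did not pass the test. The count of 80 was 48, 67 and 47 without cAMP 1, 2 and 3, 45, 45 and 40 without cAMP with IL-13 1, 2 and 3, and 122 without vehicle a, and that of 90 was 142 without vehicle a. Among glucagon-raised genes, lower calls no longer outnumbered higher ones without cAMP 1 (48 lower, 52 higher), cAMP 3 (47 lower, 48 higher), cAMP with IL-13 1 (45 lower, 46 higher) or cAMP with IL-13 3 (40 lower, 43 higher). For glucagon-lowered genes, the count of 24 was 57 without vehicle a, 13 and 11 without cAMP 1 and 3, and 10, 10 and 11 without cAMP with IL-13 1, 2 and 3.

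**Figure D5:**
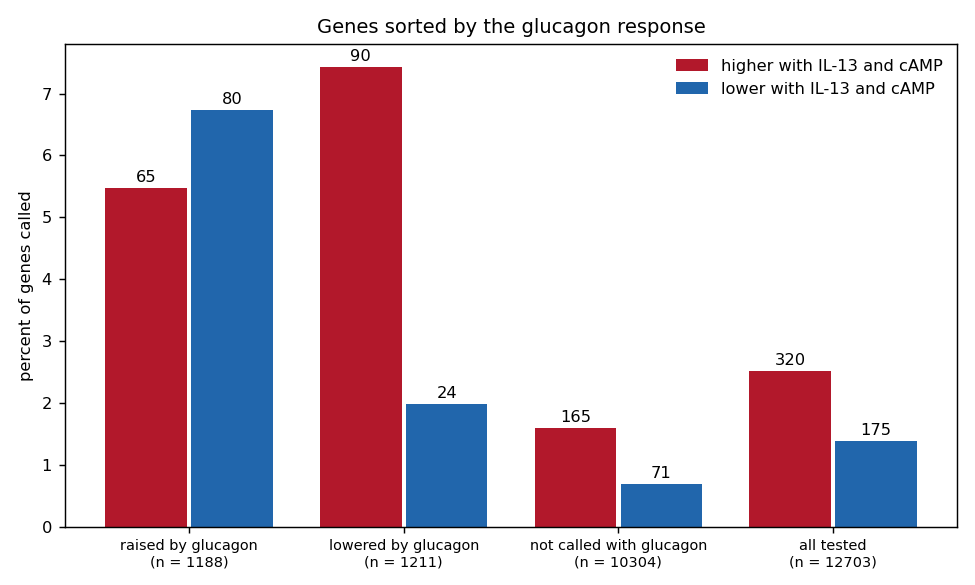
Bars give the percent of genes called higher (red) or lower (blue) in cAMP with IL-13 against cAMP, for genes that glucagon raised or lowered against vehicle, genes it did not call and all tested genes, with the number of called genes above each bar. Of glucagon-raised genes 6.73% were lower and 5.47% higher, and of glucagon-lowered genes 1.98% were lower and 7.43% higher. Of all tested genes 1.38% were lower and 2.52% higher.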

How the data were processed

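RNA of primary mouse hepatocytes from 5 groups of 3 samples was sequenced by the authors as single-end TruSeq libraries, aligned with TopHat 1.3.2 to mm10 and quantified with Cufflinks 2.0.2. The gene annotation and strand setting are not given in the sources used here, so overlapping and antisense genes cannot be separated. The authors deposited a signal table of estimated reads per gene, each library scaled by 1 factor (scaled reads), and a table of FPKM. Low values were whole multiples of 1 step per library, from which reads were recovered (93.8 to 98.7% of values whole within 0.1 reads, 15567837 to 24245973 reads per library). In part the values are not whole, so a count test was not the main test.

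Entries that reached 10 scaled reads in 3 or more of the 15 libraries were tested with limma 3.58.1 in R 4.3.3 on log2(scaled reads + 1), which understates changes of low genes. One fit held all 15 libraries with group as the only factor, a trended and robust variance and Benjamini-Hochberg adjustment over all tested genes. A called gene has an adjusted p under 0.05. Errors of log2 changes are standard errors. The members, gene lists and naming rule were chosen with earlier results of these data known.

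The rule named 11 genes of the pathway, the 15 largest called rises and falls without overlap and with a mean of at least 5 CPM, the 4 largest called changes of each list, and uncalled list members with a known role. Names that are Gm, Rik, dates, Mup or Eif3j were left out of the largest changes. Other called list members are named to complete a count and were chosen after their values were seen, as were Olr1, Ch25h, Aldh1a3, Nppc and the genes ranked by FPKM. Groups follow the sample titles, although the descriptions of the cAMP samples call them controls. Alternatives covered the pseudocount, filter, scaling, FPKM table, libraries in the fit, replicate block, variance weights and each left-out library. Promoter windows are from RefSeq. Some genes are not reported here.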

Additional observations from a re-analysis of the deposited data

How the results depend on the processing

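None of the 127 called genes followed through the alternatives changed the sign of its IL-13 effect with cAMP. Uncalled genes with a change near 0 did. The log2 change of Fbp1 ranged from -0.019 to 0.022, that of Il13ra1 from -0.0047 to 0.15 and that of Stat6 from -0.040 to 0.028. The excess of lower over higher calls among glucagon-raised genes turned round without cAMP 1 or 3 or cAMP with IL-13 1 or 3, as given with those counts. Leaving out 1 library at a time gave 282 to 765 called genes for IL-13 with cAMP, 430 to 1218 for IL-13 with glucagon and 0 to 2 for the difference of both effects. The fit on only the 6 libraries of the comparison called 963 genes with cAMP, and that fit with the replicate block called 1356, of which 785 were higher. With the FPKM table the difference called 1 gene. The other settings gave 369 to 558 called genes with cAMP: 494 and 495 with a pseudocount of 0.5 and 5, 445 without the filter, 477 with a minimum of 50 scaled reads, 483 with library size alone, 494 with TMM factors, 558 with FPKM and 486 without robust weights. Library size alone moved the median change of all genes to -0.02 on the log2 scale. Whether equal sample numbers mark pairs was not settled by the correlation of deviations from the group means. It was 0.05, 0.14 and 0.00 for the same-numbered cAMP pairs and 0.31, 0.49 and -0.11 for the glucagon pairs. Pairs of unequal number had -0.16 to 0.12 with cAMP and -0.43 to 0.23 with glucagon. With the replicate block, 369 genes were called with cAMP, 522 with glucagon and 0 for the difference. The planned edgeR and DESeq2 fits were not run, since the deposited values are in part not whole reads. Limma voom on the recovered reads, chosen after seeing the data, called 535 genes with cAMP, of which 486 were among the 495, 691 with glucagon and 0 for the difference. Of 127 called genes named in the text or lists, 84 were called in every alternative that tested them. Depth limited low genes: the median standard error was 0.23 on the log2 scale at a mean under 100 scaled reads and 0.06 at 1000 or more.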

Other observations

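Some genes with large gains in FPKM were chosen after their values were seen. Beside Hamp, with 2850 FPKM on average in cAMP with IL-13 and 1710 in cAMP, and Tgm2, with 2490 in cAMP with IL-13 and 1530 in cAMP, they included Krt8, a keratin of simple epithelia, with 3020 to 3070 FPKM in cAMP with IL-13 and 2540 to 2640 in cAMP. Hspa5, the chaperone of the endoplasmic reticulum, had 747 to 763 FPKM in cAMP with IL-13 and 573 to 589 in cAMP. Plscr1, a phospholipid scramblase, had 357 to 366 in cAMP with IL-13 and 266 to 274 in cAMP.

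Genes with large losses in FPKM were chosen in the same way. Tat had 264 FPKM on average in cAMP with IL-13 and 436 in cAMP. Aldh1a1, a retinal dehydrogenase, had 676 to 701 FPKM in cAMP with IL-13 and 774 to 798 in cAMP, and Ugdh, which makes UDP-glucuronate, 338 to 344 in cAMP with IL-13 and 391 to 400 in cAMP. Gclc, the catalytic subunit of glutathione synthesis, had 121 to 125 FPKM in cAMP with IL-13 and 164 to 167 in cAMP, with log2 changes of -0.44 with cAMP and -0.34 with glucagon.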
